A study of Mus musculus with 4 samples.

Results

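Activated splenic T cells of Cers6 knockout mice aged 8 months were compared with those of Cers6 knockout mice aged 2 months. Each age is represented by 1 library, and these are 2 of the 4 RNA-sequencing libraries of a study that also has 1 wild-type library at 8 months and 1 at 2 months. All mice had the C57BL/6 background, and all T cells came from the spleen and were cultured for 3 days with IL-2 and antibodies against CD28 and CD3, after which RNA was extracted, so every library describes activated cells. The design text speaks of duplicate samples, but 1 library per group is labelled, and whether cells of several animals were pooled or how the Cers6 allele was made is not stated in the labels or files. Of the 35275 genes in the count table, 11872 reached 2 CPM (counts relative to the library total, scaled for composition) in at least 1 knockout library and make up the comparison. Each value below is a log2 ratio of the 8-month over the 2-month knockout library, with a 95% interval for counting error only. With 1 library per age there is no replicate check and no test, and an age difference cannot be told apart from a difference between these 2 preparations.

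Ceramide synthase 6 joins a fatty acid, mostly palmitate, to a sphingoid base and so makes a long-chain ceramide, a membrane lipid that also acts in stress signalling, mitochondrial damage and cell death. T cells that receive a receptor signal, costimulation and a growth cytokine leave quiescence, grow, switch to high glycolysis, build ribosomes and mitochondria, and divide. Their RNA after some days of culture is therefore rich in transcripts of DNA replication, mitosis, glycolysis and protein synthesis. T cells of old mice are known to answer such stimulation less well than those of young mice.

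The libraries held 20342672 counts (knockout, 8 months), 18145555 (knockout, 2 months), 21886108 (wild type, 8 months) and 24239344 (wild type, 2 months). The TMM scaling factor of the 8-month knockout library was 1.15, against 0.949 in the 2-month knockout library and 0.947 to 0.968 in the wild-type libraries. The 8-month knockout library also spread its counts over more genes: 14413 genes had 10 counts or more, against 12937 in the 2-month knockout library, and the 500 most abundant genes took 41.6% of the counts, against 46.5%. Cers6 itself had 79 counts (3.38 scaled CPM) in the 8-month and 158 counts (9.17 scaled CPM) in the 2-month knockout library. Wild type had 678 and 301 counts (32 and 13.1 scaled CPM) at 8 and 2 months. Cers6 was therefore lowest in both knockout libraries, although reads remained. The wild-type libraries differed more from each other than the 2-month libraries of both genotypes did, so these values give no firm check of the labels. The 8-month wild-type library stood apart from the other 3: a single T cell receptor segment, Trbv14, took 98.6% of its Trbv counts, whereas the most abundant Trbv segment took 7.87% to 8.98% elsewhere, and its Cd4 count was 522, against 2188 to 4712 elsewhere. The 2-month wild-type library was the one with Xist RNA (10117 counts), while Xist had 4 and 0 counts in the knockout libraries at 8 and 2 months and 1 count in wild type at 8 months. The 2-month wild-type library also read the Y-linked genes Ddx3y, Eif2s3y and Kdm5d, with 515, 985 and 351 counts. It therefore held Xist and Y-linked RNA together, with the lowest scaled level of these 3 Y-linked genes among the 4 libraries. Wild-type values beside the knockout ones therefore describe 2 further libraries, not a norm. T cell identity genes were read at high levels in both knockout libraries, for example Cd3e with 233 and 347 scaled CPM at 8 and 2 months. B cell genes were read as well: Cd79a, the B cell receptor signalling chain, had 321 and 586 scaled CPM, so the libraries also hold B cell RNA. In bulk RNA, fewer cells of a type and less RNA per cell cannot be told apart.

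Of the 11872 genes, 5582 were higher and 6290 lower at 8 months, with a median log2 ratio of -0.04. At 2-fold or more, 1233 genes (10.4%) were higher and 561 (4.73%) lower, and at 4-fold or more 304 were higher and 34 lower. For 618 of the higher and 334 of the lower genes the whole counting interval lay beyond 2-fold. The split depends on the scaling. With library size alone every log2 ratio rises by 0.28, which gives 1823 genes at 2-fold higher and 274 lower and raises the higher share of such genes to 86.9%, against 68.7% with TMM. Setting the median of 25 housekeeping genes to no change adds 0.58 and gives 2916 higher and 118 lower, a higher share of 96.1%. All 25 housekeeping genes, which many assays use for normalisation, were lower at 8 months with TMM (median log2 ratio -0.58), and 24 of 25 were lower with library size alone. Ppia, the cyclophilin A gene, is one of them, with 627 scaled CPM at 8 months and 1697 at 2 months (log2 ratio -1.44, interval -1.47 to -1.41).

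**Figure D1:**
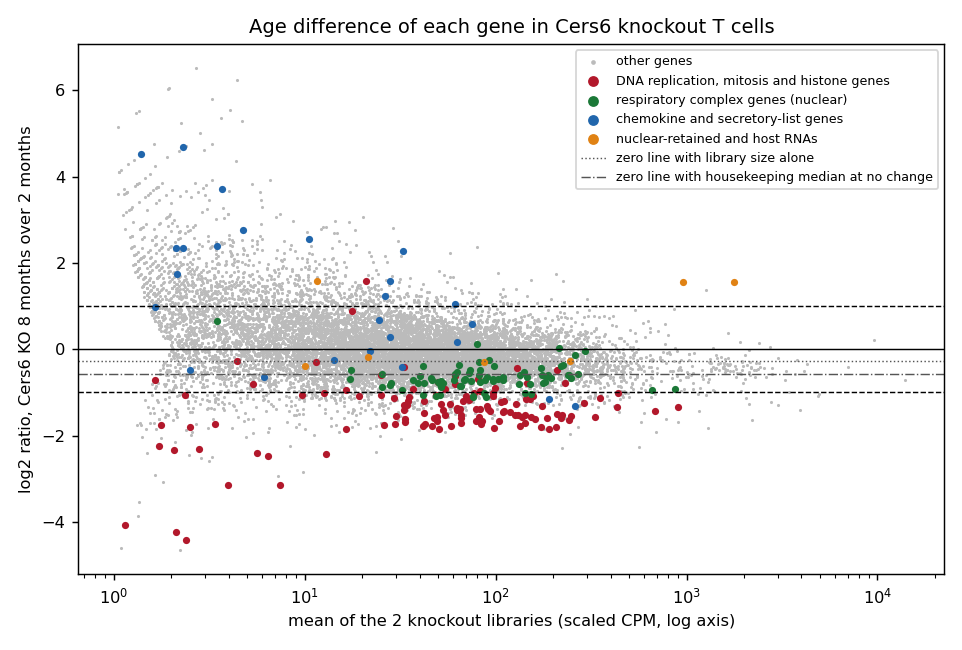
Log2 ratio of the 8-month over the 2-month knockout library (vertical axis) against the mean scaled CPM of both libraries (log axis) for the 11872 genes, with 4 groups of genes coloured, dashed lines at 2-fold and dotted lines that mark no change under the other scalings. The cloud slopes down from left to right, and most of the DNA replication, mitosis and histone genes lie below the lower dashed line.

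The direction followed expression level. The genes were divided by mean level into 6 groups of equal size. In the lowest group (mean 1.05 to 5.89 scaled CPM) the median log2 ratio was 0.66 and 37.2% were at least 2-fold higher, while in the highest group (103 to 14000 scaled CPM) the median was -0.27, 1.31% were 2-fold higher and 6.57% 2-fold lower. Across the genes, the rank correlation of the log2 ratio with mean level was -0.36, with transcript length 0.185 and with transcript GC content 0.125, the last 2 over 10941 coding genes. In the wild-type pair the same level groups had medians between -0.06 and 0.03. Part of the low end is set by the filter, since 782 genes passed it through the 8-month library alone and 167 through the 2-month library alone, and such genes had to differ. Among genes with 2 CPM or more in both libraries, 622 were 2-fold higher and 472 lower, and among genes with a mean of 10 CPM or more the order turned, with 339 higher and 405 lower. Of the genes just inside the filter, Myo1a had 2.01 and 1.63 scaled CPM at 8 and 2 months, and of those just outside it, Ampd1 had 0.60 and 1.97.

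Gene types differed as well. Protein-coding genes were 2-fold higher in 8.82% of cases (972 of 11016), long intergenic noncoding RNAs in 39.3% (86 of 219, median log2 ratio 0.76) and antisense RNAs in 49.6% (68 of 137, median 0.97), while the wild-type medians of these noncoding types were -0.09 and -0.03. Whether the counting used strand is not stated in the labels or files, so reads of antisense RNAs and of their partner genes cannot be told apart. Pseudogenes had a median below 0, with 120 of 178 lower (median -0.37), 15.2% of them 2-fold lower and 16.3% 2-fold higher. Intergenic noncoding RNA took 1.10% of the counts at 8 months and 0.679% at 2 months in knockout cells. Malat1, a noncoding RNA kept in the nucleus, had 2661 scaled CPM at 8 months and 898 at 2 months in knockout cells, against 1283 and 918 in wild-type cells (knockout log2 ratio 1.57, interval 1.54 to 1.59). Neat1, the scaffold of nuclear paraspeckles, had 1425 and 486 scaled CPM in knockout cells, against 830 and 886 in wild-type cells (knockout log2 ratio 1.55), and Kcnq1ot1, a nuclear antisense RNA that silences an imprinted region, had 17.4 and 5.81 in knockout cells, against 9.72 and 6.79 in wild-type cells. The 3 nuclear RNAs were thus highest in the 8-month knockout library among all 4, while 4 small nucleolar or microRNA host transcripts of the same list lay between -0.38 and -0.19 with TMM, with a list median of -0.19 that turns to 0.09 with library size alone. The part of nuclear RNA, expression level or gene type in the results that follow was not tested.

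**Figure D2:**
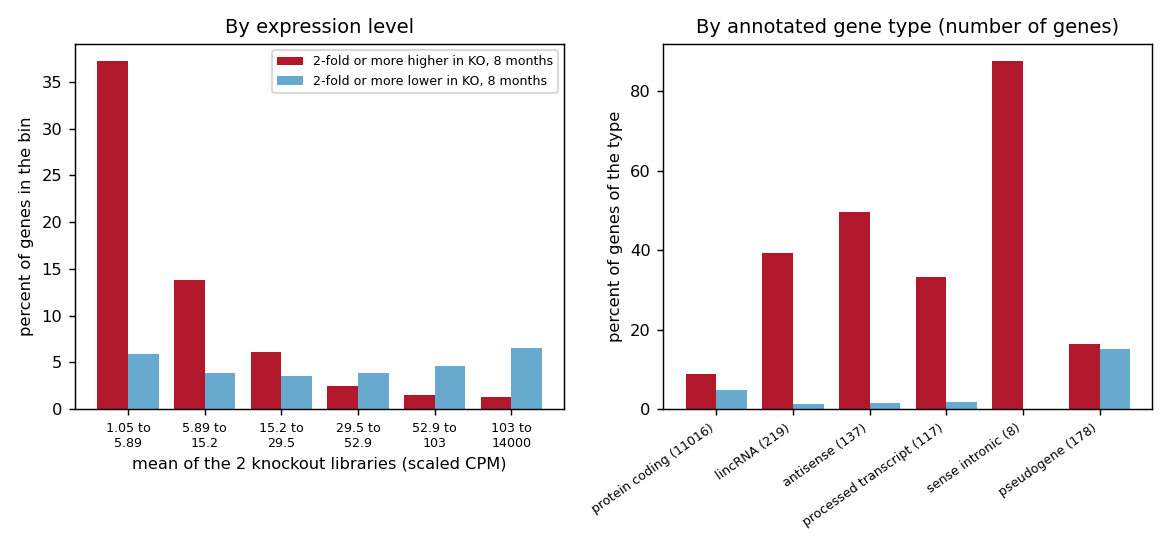
Percent of genes at least 2-fold higher (red) and lower (blue) in the 8-month than in the 2-month knockout library, by 6 groups of mean expression (left, scaled CPM) and by annotated gene type (right, number of genes in brackets). The share of higher genes is 37.2% in the lowest group and 1.31% in the highest, and it is 49.6% among antisense RNAs, against 8.82% among protein-coding genes.

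Genes of DNA replication and mitosis were lower at 8 months, with medians below 0 under every scaling tried. None of these genes passed the filter through 1 library alone, and 4.73% of all genes were 2-fold lower. All 47 measured DNA replication genes of 48 listed were lower, 35 of them 2-fold, with a median log2 ratio of -1.27 (-0.997 with library size alone, -0.69 with the housekeeping scaling), and 56 of 57 mitosis genes were lower, 52 of them 2-fold, with a median of -1.40 (-1.12 and -0.81). The wild-type pair was lower in 45 of the 47 and 56 of the 57 genes too, with medians of -0.22 and -0.37. Mcm5, a subunit of the replicative helicase, had 92.2 scaled CPM at 8 months and 321 at 2 months in knockout cells, against 275 and 314 in wild-type cells (knockout log2 ratio -1.80, interval -1.87 to -1.73). Rrm2, which supplies deoxynucleotides as the small subunit of ribonucleotide reductase, had 82.3 and 297 scaled CPM in knockout cells at 8 and 2 months, against 202 and 279 in wild-type cells at these ages (knockout log2 ratio -1.85). Lig1, the ligase that joins Okazaki fragments, had 77.1 and 270 in knockout cells, against 211 and 266 in wild-type cells (-1.81). For each of these genes the 8-month knockout library was the lowest of the 4, while the other libraries lay closer together. Among mitosis genes, Cdc20, the activator of the anaphase-promoting complex, had 43.1 and 152 scaled CPM in knockout cells at 8 and 2 months, against 131 and 157 in wild-type cells (knockout log2 ratio -1.82, interval -1.92 to -1.71). Mki67, the proliferation marker Ki-67, had 370 and 993 scaled CPM in knockout cells, against 475 and 688 in wild-type cells (-1.43). Nuf2, a kinetochore protein, had 21.9 and 78.8 in knockout cells, against 55.4 and 70.6 in wild-type cells (-1.85). The 8-month knockout library was again the lowest of the 4 for all 3 genes.

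Promoter sequence was examined for 6 motifs, because DNA replication genes are classic targets of E2F factors and mitosis genes of the complex that binds the cell-cycle homology region (CHR), often beside CCAAT boxes bound by NF-Y. The windows run from 250 bases before to 50 after the first listed start in the RefSeq table (GRCm38.p6) and matched 8667 of the 11872 genes. Both strands were searched, and none of the motifs contains another. E2F letters (TTTCCCGC, TTTGGCGC or TTTCGCGC) stood in 34.2% of 38 DNA replication windows, 10.5% of 392 windows of 2-fold lower genes, 2.33% of 816 windows of 2-fold higher genes and 3.82% of all 8667. CHR letters (TTTGAA) stood in 74.5% of 47 mitosis windows, 26% of 2-fold lower, 8.7% of 2-fold higher and 11.7% of all windows, and CCAAT in 72.3%, 53.3%, 34.1% and 39.1% of the same sets. The 29 windows of interferon-stimulated genes, a list with no common direction, held CHR letters in 31%. Outside the replication, mitosis and histone lists, the 322 lower genes with a window held E2F letters in 8.07%, CHR letters in 21.1% and CCAAT in 49.1%. The other motifs differed less between lower, higher and all genes: the interferon response core TTTCNNTTT stood in 8.42%, 6.13% and 7.8%, the cAMP response element TGACGTCA in 4.08%, 2.7% and 3.45%, and the E-box CACGTG in 11%, 8.33% and 10.5%. In all 27025 promoters of the table the shares were 1.91% for E2F, 18.1% for CHR and 37.9% for CCAAT letters. A match describes letters and does not show that a factor binds. The 150 bases before the start are shown for 3 replication genes with low ratios whose window holds E2F letters there. They are examples and not a full ranking of the list. The genes are Mcm5 (chr8:75109359-75109508, plus strand), Rfc3 (chr5:151651209-151651358, minus strand) and Pola1 (chrX:93632156-93632305, minus strand), with the E2F letters in capitals.
Mcm5: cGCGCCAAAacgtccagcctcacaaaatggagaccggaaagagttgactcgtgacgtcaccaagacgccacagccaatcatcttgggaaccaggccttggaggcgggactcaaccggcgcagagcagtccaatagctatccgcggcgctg
Rfc3: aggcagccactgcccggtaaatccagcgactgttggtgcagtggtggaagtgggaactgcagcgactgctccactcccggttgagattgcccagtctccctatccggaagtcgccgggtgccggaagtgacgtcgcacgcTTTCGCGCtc
Pola1: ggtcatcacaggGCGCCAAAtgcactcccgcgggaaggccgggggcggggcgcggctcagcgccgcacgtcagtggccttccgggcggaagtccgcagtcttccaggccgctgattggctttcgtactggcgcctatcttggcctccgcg
Rfc3, a subunit of the clamp loader, had 11.9 scaled CPM at 8 months and 40.2 at 2 months in knockout cells, and Pola1, the catalytic subunit of DNA polymerase alpha, had 30.6 and 101. The letters lie near the start in Rfc3, whose first base is 10 before it, and farther out in Mcm5 and Pola1, at 149 and 138 bases before it. The same stretch is shown for 3 mitosis genes with low ratios whose window holds both CHR and CCAAT letters, again as examples and not as a full ranking. The genes are Cdc20 (chr4:118437344-118437493), Cdk1 (chr10:69352913-69353062) and Cks1b (chr3:89418292-89418441), all on the minus strand. The CHR and CCAAT letters of either strand are in capitals.
Cdc20: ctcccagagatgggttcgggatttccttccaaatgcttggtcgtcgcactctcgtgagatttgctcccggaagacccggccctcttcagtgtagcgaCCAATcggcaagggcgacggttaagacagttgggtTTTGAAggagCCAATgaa
Cdk1: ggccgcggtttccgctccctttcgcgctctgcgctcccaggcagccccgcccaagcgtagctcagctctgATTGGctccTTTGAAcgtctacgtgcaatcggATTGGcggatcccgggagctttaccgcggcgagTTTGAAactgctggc
Cks1b: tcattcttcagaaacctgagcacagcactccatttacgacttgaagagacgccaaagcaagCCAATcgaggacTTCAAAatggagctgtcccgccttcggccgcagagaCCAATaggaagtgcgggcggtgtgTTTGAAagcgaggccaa
The CHR match nearest the start begins 18 bases before it in Cdc20, 15 in Cdk1 and 17 in Cks1b. Cdk1, the kinase that drives entry into mitosis, had 37.9 scaled CPM at 8 months and 120 at 2 months in knockout cells, against 97.8 and 121 in wild-type cells. Cks1b, a small partner of this kinase, had 32.6 and 99.1 scaled CPM in knockout cells, against 87.0 and 104 in wild-type cells. Cdk1 and Cks1b were chosen by ratio and promoter letters together.

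Histone genes and other chromatin genes of dividing cells were also lower. Of 57 clustered histone genes, 20 passed the filter, 15 of them through the 2-month library alone, and the other 37 had under 2 CPM in both libraries. Of the 20, 16 were 2-fold lower and 1 was 2-fold higher, and the 15 genes that passed through the 2-month library alone had to be lower. With 2 CPM in both libraries the list median was -0.81, against -2.27 over the 20. Hist1h3c, which encodes a core histone of the replication-dependent cluster, had 4.07 and 21.8 scaled CPM in knockout cells at 8 and 2 months (95 and 376 counts), against 14.2 and 22.2 scaled CPM in wild-type cells at these ages (knockout log2 ratio -2.42, interval -2.76 to -2.10). Reads of near-identical histone genes may be split by the counting, and these messages mostly lack a poly(A) tail, so their level also depends on how RNA was selected, which is not stated in the labels or files. Hmgn2, a nucleosome-binding protein with many processed copies in the genome, had the lowest ratio among coding genes outside the histones and with a mean of 10 CPM or more: 75.8 and 369 scaled CPM in knockout cells, against 329 and 352 in wild-type cells (knockout log2 ratio -2.28, interval -2.36 to -2.21). Hmgb2, a DNA-bending protein abundant in dividing lymphocytes, had 292 and 1094 scaled CPM in knockout cells, against 909 and 1041 in wild-type cells (-1.90). In both genes the 3 other libraries lay close together and the 8-month knockout library was the outlying one.

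Regulators of the cycle were less uniform than its machinery. Of all 11872 genes, 6290 were lower and 4.73% were 2-fold lower. Of 23 measured cyclins, E2F factors and CDK inhibitors, 19 were lower, 3 of them 2-fold, with a median log2 ratio of -0.56 that turns to 0.02 with the housekeeping scaling. Cdkn2c, an inhibitor of CDK4 and CDK6, had 25.8 and 60.4 scaled CPM at 8 and 2 months (log2 ratio -1.23), and E2f2, a transcription factor of the E2F family, had 87.6 and 181 at these ages (-1.04). Ccnd2, the D-type cyclin of activated T cells, had 380 and 340 scaled CPM (log2 ratio 0.16). Of 24 measured p53 target genes, 15 were higher and 9 lower, and the 1 gene at 2-fold was Gtse1, a G2 phase protein, with 16.1 and 47.1 scaled CPM (-1.55).

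Genes of growth metabolism were lower at 8 months as well, most of them by less than 2-fold. Over all 11872 genes, 6290 were lower and 4.73% were 2-fold lower, and in the highest level group 6.57% were 2-fold lower. Of 24 glycolysis and glucose genes, 21 were lower and 9 of them 2-fold, with a median log2 ratio of -0.71 (-0.43 with library size alone, -0.13 with the housekeeping scaling), and in the wild-type pair 23 of 24 were lower with a median of -0.26. Tpi1, triosephosphate isomerase, had 567 and 2015 scaled CPM in knockout cells at 8 and 2 months, against 1854 and 2150 in wild-type cells at these ages (knockout log2 ratio -1.83, interval -1.86 to -1.80). Ldha, which makes lactate, had 1078 and 3344 in knockout cells, against 3194 and 3456 in wild-type cells (-1.63). The 3 other libraries differed little in both genes. Of 30 genes for amino acids, one-carbon units and polyamines, 27 were lower and 9 of them 2-fold, with a median of -0.76 (-0.48 and -0.18 under the other scalings). Mthfd1l, a mitochondrial enzyme that makes formate for nucleotides, had 78 and 279 scaled CPM in knockout cells at 8 and 2 months (log2 ratio -1.84), and Slc7a5, the large neutral amino acid carrier, had 24.3 and 58.3 (-1.26). Slc7a11, the cystine carrier, was higher, with 3.34 and 0.64 scaled CPM in knockout cells and 13.5 and 2.44 in wild-type cells (log2 ratios 2.39 and 2.47).

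Respiratory chain, ribosome and proteasome genes were lower as groups, by small amounts per gene. Of 37 nuclear genes of complex I, 35 were lower and 4 of them 2-fold, with a median log2 ratio of -0.70 (-0.43 and -0.12 under the other scalings), and of 40 nuclear genes of complexes II to V, 39 were lower and 5 of them 2-fold, with a median of -0.67 (-0.40 and -0.09). Ndufa4 had 48.2 and 104 scaled CPM in knockout cells at 8 and 2 months, against 104 and 110 in wild-type cells (knockout log2 ratio -1.11). It is counted in the complex I list, although its protein is assigned to complex IV. The ATP synthase gene Atp5o had 56.7 and 121 in knockout cells, against 107 and 123 in wild-type cells (-1.10). The wild-type medians of these lists were -0.11 and -0.13. Of these 77 nuclear genes 11.7% were 2-fold lower, against 4.73% of all genes and 6.57% of the highest level group, whose median was -0.27. Transcripts of the mitochondrial genome did not share one size of difference: 10 of 11 measured were lower, with a median of -0.35 that turns to 0.23 with the housekeeping scaling, while the wild-type median was 0.27. The largest differences were those of mt-Nd3, a complex I subunit, with 9.72 and 34.1 scaled CPM in knockout cells at 8 and 2 months, against 16.1 and 8.49 in wild-type cells (knockout log2 ratio -1.81), and of mt-Nd6, encoded on the other strand, with 237 and 645 in knockout cells, against 790 and 565 in wild-type cells (-1.45). Mitochondrial genes as a whole took 1.72% of the counts at 8 months and 1.49% at 2 months in knockout cells. All 35 proteasome genes were lower (median -0.60, -0.02 with the housekeeping scaling), none of them by 2-fold. Of 78 cytosolic ribosomal protein genes, 77 were lower with none at 2-fold (median -0.45), of 40 ribosome biogenesis genes 37 (median -0.54) and of 75 mitochondrial ribosome genes 72 (median -0.52), and the medians of these 3 lists turn to 0.13, 0.04 and 0.06 with the housekeeping scaling. These 3 medians were also below 0 with library size alone, so only the housekeeping scaling turns them. The medians of the replication, mitosis, glycolysis, respiratory and proteasome lists were below 0 with TMM, library size and the housekeeping scaling. With the last of these, replication and mitosis had -0.69 and -0.81, while the other lists lay near 0, between -0.13 and -0.02.

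The cytoskeleton and adhesion list, which holds actins, tubulins and proteins that bind them, had 18 of 20 genes lower, 8 of them 2-fold (median -0.87, and -0.29 with the housekeeping scaling). Over all genes 4.73% were 2-fold lower, and 6.57% in the highest level group. Stmn1, stathmin, which destabilises microtubules and is made by dividing lymphocytes, had 100 and 388 scaled CPM in knockout cells at 8 and 2 months, against 384 and 427 in wild-type cells (knockout log2 ratio -1.96, interval -2.02 to -1.89). Tuba1b, an alpha tubulin with near-identical relatives, had 427 and 1370 in knockout cells, against 1262 and 1515 in wild-type cells (-1.68). Chaperone genes were lower in 26 of 34 cases (median -0.47, 0.11 with the housekeeping scaling). Hsp90ab1, the main cytosolic HSP90, had 1670 and 3885 scaled CPM in knockout cells at 8 and 2 months (log2 ratio -1.22), whereas Ern1, the IRE1 sensor of endoplasmic reticulum stress, had 28.3 and 10.5 (1.43).

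**Figure D3:**
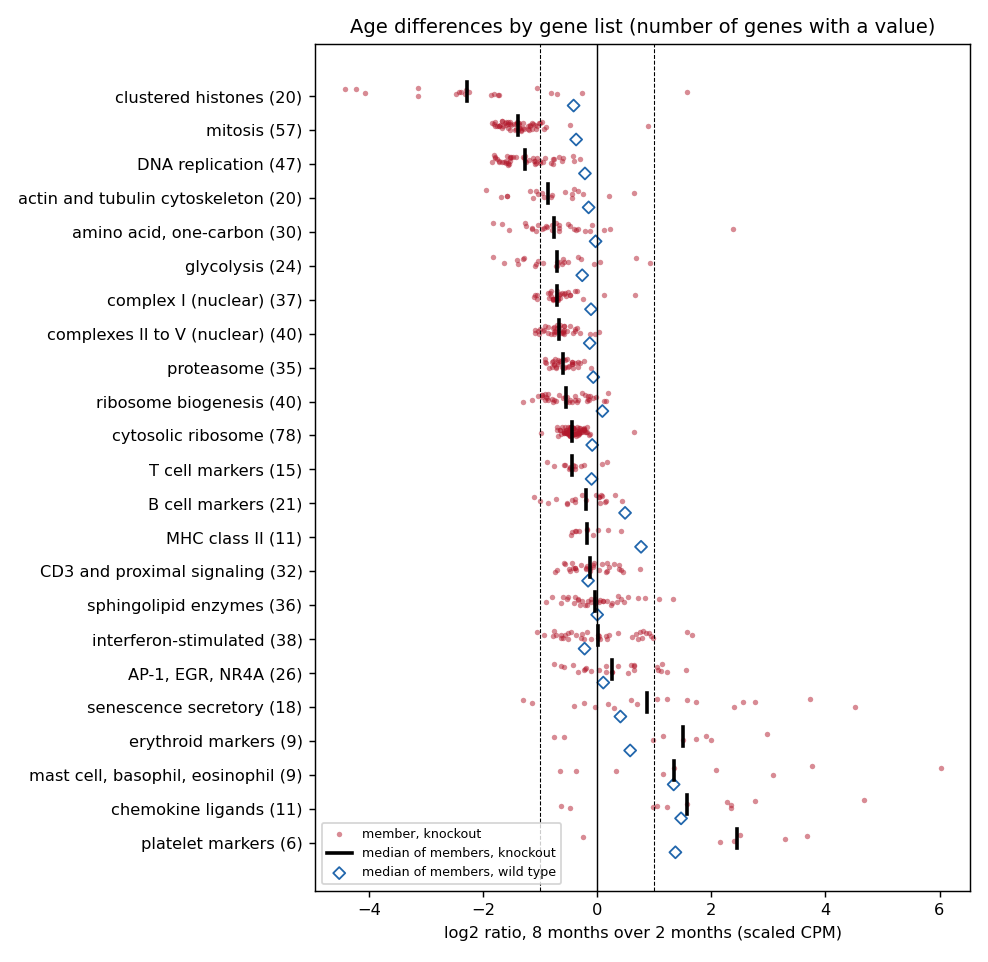
Log2 ratio of 8 over 2 months for each measured member of 23 gene lists in knockout cells (red points, with the list median as a black bar) and the median of the same genes in wild-type cells (blue diamonds), on the TMM scale, with the number of members in brackets. The replication, mitosis and histone lists lie farthest left in knockout cells with wild-type medians of -0.41 to -0.22. The B cell and MHC class II medians are below 0 in knockout and above 0 in wild-type cells, and the knockout medians of both turn above 0 with library size alone.

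Genes that mark T cells as such were lower by small amounts. Of 15 T cell marker genes, 13 were lower with none at 2-fold (median -0.45, and 0.13 with the housekeeping scaling), and all 19 measured Trbv segments were lower with none at 2-fold (median -0.73). CD3 and proximal signalling genes had 12 of 32 higher and 20 lower (median -0.13, and 0.14 with library size alone). Cd4 had 202 and 127 scaled CPM in knockout cells at 8 and 2 months and Cd8a had 412 and 536, so the ratio of CD4 to CD8 message was higher at 8 months. In wild type Cd4 had 24.6 and 115 and Cd8a 556 and 463 at these ages, the opposite order. Naive and central memory genes were lower in 21 of 23 cases, 5 of them 2-fold (median -0.26, and 0.01 with library size alone). Of all 11872 genes, 6290 were lower and 4.73% were 2-fold lower. Dapl1, a gene of resting naive T cells, had 28.6 and 84.1 scaled CPM in knockout cells, against 32.2 and 81.8 in wild-type cells (knockout log2 ratio -1.56). Dapl1 was thus about as low in the 8-month wild-type library.

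Most cytotoxic granule genes were lower at 8 months. Of 11 measured, 9 were lower, 2 of them 2-fold, and 2 were higher, 1 of them 2-fold (median log2 ratio -0.46, and 0.12 with the housekeeping scaling), and in the wild-type pair 10 of the 11 were lower. The genes at 2-fold were Gzmb and Gzma on the lower and Fasl on the higher side. Of all genes, 4.73% were 2-fold lower and 10.4% 2-fold higher in knockout cells. Gzmb, granzyme B, had 194 and 927 scaled CPM in knockout cells at 8 and 2 months, against 123 and 959 in wild-type cells at these ages (log2 ratios -2.25 and -2.96), and Gzma, granzyme A, had 22.8 and 85.5 in knockout cells, against 23.4 and 181 in wild-type cells (-1.91 and -2.95). Both granzymes were low in both 8-month libraries. Fasl, the death ligand, had 8.22 and 3.54 scaled CPM in knockout cells and 0.71 and 6.27 in wild-type cells (log2 ratios 1.21 and -3.15), and the NK receptor gene Klrk1 had 33.9 and 30.7 in knockout cells and 4.06 and 34.2 in wild-type cells (0.14 and -3.08). Of 12 measured killer lectin-like receptor genes, 7 of which passed through 1 library alone, 6 were higher and 6 lower in knockout cells, while all 12 were lower in the wild-type pair (medians -0.08 and -4.43, and 0.20 in knockout cells with library size alone). The low wild-type values of Fasl and Klrk1 are those of the 8-month library with 1 dominant Trbv segment, and the part of that library difference in them was not tested.

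Several signal-induced transcription factors had higher levels at 8 months. Of 26 measured AP-1, EGR, NR4A and NF-kB genes, 17 were higher, 6 of them 2-fold, and 9 lower with none at 2-fold (median log2 ratio 0.26, wild type 0.11), against 5582 of the 11872 genes higher and 10.4% of them 2-fold. Of the 26 genes, 1 had passed through the 8-month library alone. Nr4a1, an early gene of T cell receptor signalling, had 145 and 66.7 scaled CPM in knockout cells at 8 and 2 months, against 81.6 and 72 in wild-type cells (knockout log2 ratio 1.12, interval 1.02 to 1.22). Rel, the c-Rel subunit of NF-kB, had 95.4 and 45.5 in knockout cells, against 37 and 31.5 in wild-type cells (1.07), and Nfkbiz, an NF-kB cofactor, had 75.7 and 32.6, against 38.5 and 33.5 (1.22). For these 3 genes the 8-month knockout library was the highest of the 4. Cytokine genes differed by gene. Il10, an inhibitory cytokine, had 20.3 and 6.33 scaled CPM in knockout cells, against 8.59 and 9.75 in wild-type cells (1.68), and Ifng, interferon gamma, had 4.62 and 1.51 in knockout cells, against 0.66 and 2.05 in wild-type cells (1.61). Il17a was read in knockout cells only, with 57 counts at 8 months and 2 at 2 months (log2 ratio 4.39, interval 2.47 to 7.47), and Il13 had 135 and 9 counts in knockout cells, against 35 and 23 in wild-type cells. Ltb, lymphotoxin beta, was lower, with 161 and 394 scaled CPM in knockout cells, against 594 and 457 in wild-type cells (-1.29).

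Most measured chemokine ligands were higher at 8 months, in wild-type cells too. Of 23 chemokine ligand genes, 11 passed the filter, 5 of them through the 8-month library alone, and 9 were higher, 8 of them 2-fold (median 1.58, and 1.13 with 2 CPM in both libraries), against 10.4% of all genes and 37.2% of those in the lowest level group. In wild-type cells 8 of the 11 were higher (median 1.47), 6 of them 2-fold, against 3.13% of all genes measured there. The 3 others were each 2-fold or more lower in wild-type cells, against 2.39% of all genes, while none was 2-fold lower in knockout cells. Ccl22, a ligand of CCR4 made by dendritic and activated T cells, had 54.3 and 11.3 scaled CPM in knockout cells at 8 and 2 months, against 109 and 20.7 in wild-type cells at these ages (log2 ratios 2.27 and 2.39). Cxcl2, a neutrophil attractant, had 8.26 and 1.22 in knockout cells, against 19.9 and 2.74 in wild-type cells (2.76 and 2.86). Il1b, interleukin 1 beta, had 18 and 3.08 in knockout cells, against 13.9 and 4.92 in wild-type cells (2.55 and 1.5), and Ptgs2, cyclooxygenase 2, had 27.7 and 5.11, against 12.2 and 6.01 (2.44 and 1.02). Of 18 measured genes of the senescence-associated secretory list, 13 were higher, 9 of them 2-fold, and 5 lower, 2 of them 2-fold (medians of 0.86 in knockout and 0.41 in wild-type cells). Since 5 had passed through the 8-month library alone, the knockout median was 0.29 with 2 CPM in both libraries. Mmp12, a macrophage elastase, had 161 and 9 counts in knockout cells, against 634 and 34 in wild-type cells. Ccl22, Cxcl2, Il1b, Ptgs2 and Mmp12 were higher at 8 months in both genotypes, and Ccl22, Cxcl2 and Mmp12 were highest in the 8-month wild-type library. Among cytokine receptors, Csf2rb and its near-identical neighbour Csf2rb2, whose reads the counting may have split, had 82.0 and 23.2 scaled CPM at 8 months and 25 and 4.59 at 2 months in knockout cells (1.72 and 2.34), and Il1rl1, the IL-33 receptor, had 6.76 and 1.45 (2.22).

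Markers of other cells of the blood and spleen accompany these genes. Of all genes, 10.4% were 2-fold higher in knockout cells, and 37.2% of those in the lowest level group. Of the 16 neutrophil markers none passed the filter, and their summed level was 8.09 and 0.58 scaled CPM in knockout cells at 8 and 2 months, against 137 and 2.92 in wild-type cells. Of these neutrophil markers, 2 and 9 were at 0 in knockout cells at 8 and 2 months. The 22 monocyte and macrophage markers summed to 99.6 and 74.6 in knockout cells, against 257 and 94.8 in wild-type cells, with 3 and 10 of them at 0 in knockout cells, and Lyz2, the lysozyme of macrophages and neutrophils, had 3.89 and 1.22 in knockout cells, against 44.5 and 1.48 in wild-type cells. Of 9 measured mast cell, basophil and eosinophil markers, 6 were 2-fold higher, but 6 had passed through the 8-month library alone. The list median was 1.35, and -0.37 over the few members with 2 CPM in both libraries. Gata2, a factor of these cells, had 12.7 and 1.51 scaled CPM in knockout cells, against 15.1 and 5.44 in wild-type cells, and the basophil protease Prss34 had 88 and 1 counts, against 211 and 11. The 16 markers of this list found in the table summed to 67.5 and 58.6 in knockout cells, against 155 and 59.3 in wild-type cells, with 3 and 4 of them at 0 in knockout cells. Of 6 measured platelet markers, 5 were 2-fold higher, but 4 had passed through the 8-month library alone. The list median was 2.45, and with a mean of 10 CPM or more only the 1 lower marker remained (-0.25). The 13 listed markers summed to 149 and 134 in knockout cells, against 138 and 132 in wild-type cells. Pf4, platelet factor 4, had 252 and 19 counts in knockout cells, against 197 and 60 in wild-type cells. Of 9 measured erythroid markers 6 were 2-fold higher and 4 had passed through the 8-month library alone, and the sum of the list was 273 and 285 in knockout cells, against 300 and 225 in wild-type cells. Hbb-bs, a beta globin, had 34.5 and 12.2 scaled CPM in knockout cells, against 19.8 and 10.3 in wild-type cells, and Car1, a carbonic anhydrase of red cells, had 15.5 and 1.97, against 8.12 and 3.18. Lyz2, Gata2, Prss34, Pf4, Hbb-bs and Car1 were thus higher at 8 months in both genotypes, the first 3 with their highest level in wild type and the other 3 with theirs in knockout cells. Dendritic cell markers, which include Ccl22, summed to 1116 and 867 in knockout cells, against 965 and 963 in wild-type cells, and NK cell markers to 171 and 245, against 87.3 and 368. The part of these cells in the higher chemokine and inflammatory genes was not tested.

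B cell genes were split. Of all genes, 4.73% were 2-fold lower in knockout cells. The 21 B cell markers summed to 5220 scaled CPM in the 8-month and 5773 in the 2-month knockout library, against 9891 and 6546 in wild-type cells, and 9 were higher and 12 lower in knockout cells, with 2 at 2-fold lower (median -0.20, and 0.08 with library size alone). Cd79b, a chain of the B cell receptor complex, had 196 and 424 scaled CPM in knockout cells, against 748 and 492 in wild-type cells (knockout log2 ratio -1.11). Of the immunoglobulin variable segments, 52 of 62 measured Igkv and 45 of 63 Ighv segments were higher, with medians of 0.59 and 0.45. At 2-fold there were 18 Igkv segments and 8 Ighv segments, the Ighv share being near the 10.4% of all genes. Igj, the J chain of secreted antibodies, had 91.4 and 28.7 scaled CPM in knockout cells, against 166 and 29 in wild-type cells (1.67 and 2.52). The other plasma cell markers did not all share this size of difference. Of 12 measured with Igj, 7 were higher, 3 of them 2-fold, and 5 lower (median 0.19), and 1 had passed through the 8-month library alone. The 13 listed markers summed to 674 and 582 in knockout cells, against 1123 and 621 in wild-type cells. MHC class II genes, which B cells and other presenting cells express, had 3 of 11 higher and 8 lower in knockout cells with none at 2-fold, against 11 of 11 higher in wild-type cells (medians -0.18 and 0.77, and 0.09 in knockout cells with library size alone).

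Interferon-linked genes showed no common direction in knockout cells. Of all genes, 10.4% were 2-fold higher and 4.73% 2-fold lower in these cells. Of 38 measured interferon-stimulated genes, 20 were higher and 18 lower, with 2 and 1 at 2-fold (median 0.02), against 8 higher and 30 lower in the wild-type pair (median -0.22). Ifitm3, an antiviral membrane protein, had 8.99 and 2.85 scaled CPM in knockout cells at 8 and 2 months, against 16.7 and 9.19 in wild-type cells (log2 ratios 1.66 and 0.86), and Ifit3, which binds viral RNA complexes, had 12.5 and 25.9 in knockout cells, against 4.11 and 34.9 in wild-type cells (-1.05 and -3.09). Gbp2, an interferon-inducible GTPase, had 273 and 883 in knockout cells, against 332 and 897 in wild-type cells (-1.69 and -1.44), and was the 1 of 17 such GTPases at 2-fold. The median of the 17 GTPases was -0.01 in knockout cells (0.26 with library size alone) and -0.93 in wild-type cells.

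Sphingolipid enzyme genes, the pathway of the deleted enzyme, mostly differed little. Of the other ceramide synthases, Cers2 had 80.6 and 76.1 scaled CPM in knockout cells at 8 and 2 months (log2 ratio 0.08, interval -0.02 to 0.19), Cers4 had 43.5 and 29.3 (0.57) and Cers5, which makes ceramides of the same chain length as Cers6, had 56 and 69.9 (-0.32). Cers1 and Cers3 were under the filter. Of 36 measured enzymes of the pathway, 16 were higher and 20 lower, with 2 at 2-fold higher and none at 2-fold lower (median -0.04, and 0.23 with library size alone). The genes at 2-fold were Degs2, a dihydroceramide desaturase and hydroxylase, with 62.4 and 24.9 scaled CPM in knockout cells, against 45.6 and 49.2 in wild-type cells (knockout log2 ratio 1.32, interval 1.17 to 1.48), and Galc, the lysosomal galactosylceramidase, with 19.4 and 9.12, against 8.68 and 9.32 (1.09). The sphingomyelinase genes Smpd4 and Smpd1 had 28.2 and 42.3 scaled CPM at 8 months and 52.5 and 72.9 at 2 months in knockout cells (-0.90 and -0.79). Among the receptors of sphingosine 1-phosphate, S1pr1, which directs lymphocyte exit, had 133 and 163 scaled CPM in knockout cells, against 142 and 122 in wild-type cells (-0.30), S1pr4 had 81.9 and 153, against 172 and 154 (-0.90), and S1pr3 had 103 and 24 counts, against 91 and 66 (1.66). The direction of S1pr1 turns with the housekeeping scaling. Of 7 measured sphingosine 1-phosphate receptors and carriers, 5 were higher, 2 of them 2-fold, and 2 lower (median 0.65). Of the 7, 2 had passed through the 8-month library alone, and 10.4% of all genes were 2-fold higher.

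The 20 genes with the highest ratios among those with a mean of 10 CPM or more had no common list. Spred3, an inhibitor of the RAS pathway, led with 25.6 and 3.25 scaled CPM in knockout cells at 8 and 2 months, against 2.93 and 2.96 in wild-type cells (knockout log2 ratio 2.98, interval 2.58 to 3.40). Tle2, a Groucho family corepressor, had 30.2 and 3.89 in knockout cells, against 6.09 and 5.18 in wild-type cells (2.96). Gabbr1, a subunit of the GABA type B receptor (chr17:37045966-37075067, GRCm38), had the most counts among the 20, with 3142 and 445 counts in knockout cells, against 789 and 849 in wild-type cells (2.38, interval 2.24 to 2.53). These 3 genes were nearly level in the wild-type pair. The extracellular matrix genes Agrn, agrin, and Lama5, a laminin chain, had 52.1 and 21.9 scaled CPM at 8 months and 9.17 and 3.08 at 2 months in knockout cells (2.51 and 2.83), and were lower at 8 months in wild-type cells (-0.67 and -1.21). Dnm1, the dynamin of synaptic vesicles, had 25.5 and 3.95 in knockout cells, against 0.38 and 3.61 in wild-type cells (2.69 and -3.26). The peptide carrier Slc15a2 and the kinesin gene Kifc2 had 51 and 32.1 scaled CPM at 8 months and 7.26 and 4.70 at 2 months in knockout cells (2.81 and 2.77). In all of these genes the 8-month knockout library was the highest of the 4.

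**Figure D4:**
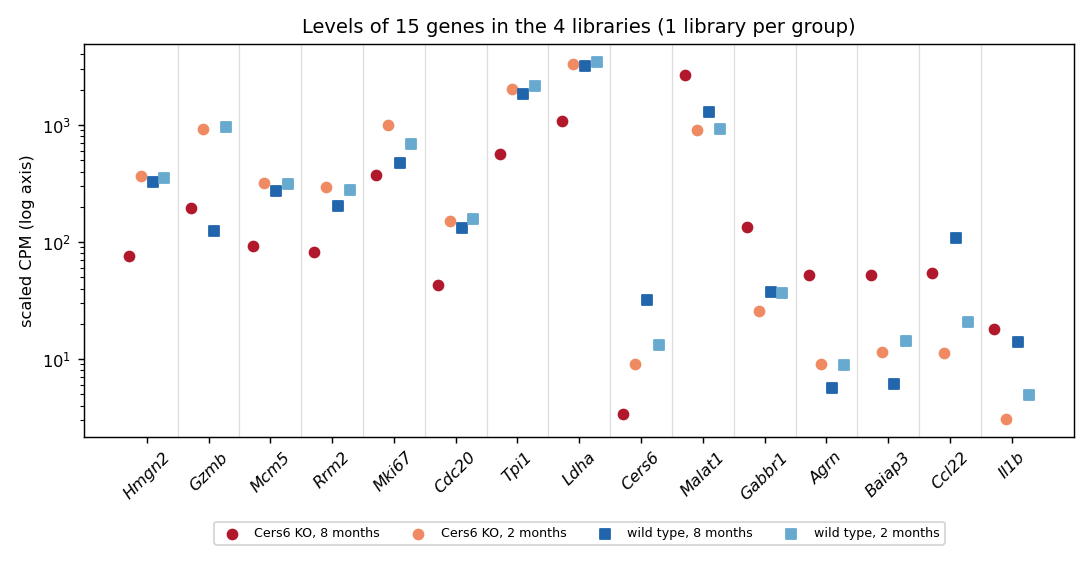
Scaled CPM (log axis) of 15 genes in the 4 libraries, in the order knockout at 8 months, knockout at 2 months, wild type at 8 months and wild type at 2 months, 1 point per library. Hmgn2, Mcm5, Rrm2, Mki67, Cdc20, Tpi1 and Ldha are lowest in knockout cells at 8 months, Gzmb is low in both 8-month libraries, and Malat1, Gabbr1, Agrn and Baiap3 are highest in knockout cells at 8 months.

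Coding genes that were 2-fold higher differed from the lower ones in structure and level. The 972 higher genes had a median mean level of 4.61 scaled CPM, a median transcript GC content of 53.6% and a median transcript length of 3182 bases, and the 521 lower genes had 39.5 scaled CPM, 49.1% and 2438 bases, against 32.9 scaled CPM, 50.1% and 3120 bases over all 11016 coding genes. Removing the trend of the ratio with gene length left 1301 genes 2-fold higher and 458 lower, and removing the trend with expression level, an alternative added after the data were seen, left 796 higher and 706 lower.

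Fewer genes were 2-fold apart in the wild-type pair, and about as many of its higher genes were shared with the knockout pair as were not. Of 11580 genes measured in the wild-type pair, 362 (3.13%) were 2-fold higher and 277 (2.39%) lower at 8 months. The SD of the log2 ratio over 8509 genes with a mean of 10 CPM or more was 0.56 in the knockout pair and 0.33 in the wild-type pair. Across 12131 genes measured in any library the knockout and wild-type log2 ratios, which share no library, had a Pearson correlation of 0.189 and a Spearman correlation of 0.148, given as a description across genes. Among these 12131 genes, 1295 were 2-fold higher and 586 lower in the knockout pair, against 423 and 363 in the wild-type pair. The pairs shared 215 genes at 2-fold higher, which is 16.6% of the 1295 and 50.8% of the 423, and 30 genes at 2-fold lower, which is 5.12% of the 586 and 8.26% of the 363. A further 102 genes were 2-fold higher in knockout and 2-fold lower in wild-type cells, which is 28.1% of the 363. The reverse held for 12 genes, which is 2.84% of the 423. At 2-fold, the lower wild-type genes were thus more often higher than lower in knockout cells, but the filter sets part of these overlaps. A gene could enter this set through a knockout library alone, which gave 363 lower wild-type genes here, against 277 above. In the knockout comparison 782 genes passed through the 8-month library alone, against 167 through the 2-month one, and such genes had to differ. Over the 11872 genes of the knockout comparison, 10.4% were 2-fold higher and 4.73% lower. The difference between the age contrasts was not tested.

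In the authors' deposited table, 256 genes were marked as higher and 55 as lower in this comparison, and every mark matched an adjusted p below 0.005 with more than a 2-fold difference. Of these, 226 and 52 were within the filter used here, and all of these were 2-fold in the same direction. The authors' deposited log2 values lay 0.01 below the ones given here in the median. How a p was obtained from 1 library per age is not stated in the labels or files.

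**Figure D5:**
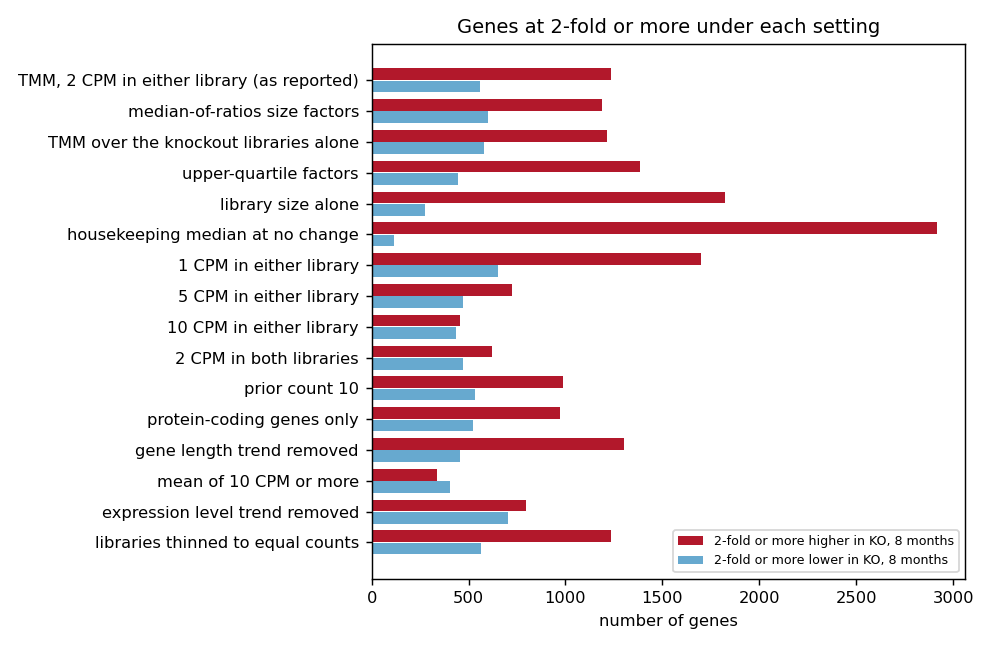
Number of genes at least 2-fold higher (red) and lower (blue) in the 8-month than in the 2-month knockout library under the reported setting and 15 alternatives of scaling, filter and correction. Not drawn are the unfiltered genes (3698 higher and 2385 lower) and settings close to the reported one. Among those drawn, the higher genes run between 339 with a mean of 10 CPM or more and 2916 with the housekeeping scaling, and the lower genes between 118 with the housekeeping scaling and 706 with the level trend removed.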

How the data were processed

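RNA of activated splenic T cells was sequenced in 4 libraries, 1 per group, and the labels gave the groups. Per the submitters' processing notes, the tools and builds were CASAVA, STAR, GRCm38 and mm10. The counting tool, annotation and strand setting are stated neither in the labels nor in the files. The deposited table gives raw counts of reads per gene and, per the file headers, FPKM values that were not used for the comparison. The authors' log2 fold changes and adjusted p-values were used only to count marked genes. Gene lengths and coordinates are those deposited.

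Counts were scaled by TMM factors over the 4 libraries and all genes with a count (edgeR 4.0.16, R 4.3.3). Genes with 2 scaled CPM or more in either knockout library were compared by the plain log2 ratio, without a prior count. A count of 0 was set to 3 counts, which correspond to 0.128 and 0.174 scaled CPM in the knockout libraries at 8 and 2 months. Intervals are exact at 95% (Clopper-Pearson on the split of both counts, scipy 1.17.1) and cover counting error only, and no interval covers differences between cultures or animals. No test was made, and the ratio and its interval were tested on simulated data. The filter of 2 CPM corresponds to 46.7 counts at 8 months and 34.4 at 2 months.

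The 62 gene lists hold 1591 entries, of which 1579 were found. A further 4 lists were added after values were seen. Members and lists were chosen with earlier results of these data known. Named genes are the ceramide synthases, the 20 highest and 20 lowest ratios among genes with a mean of 10 CPM or more, the first 2 members and the 5 largest differences of each list, the 10 highest and 10 lowest differences between the knockout and the wild-type ratio, and 3 genes on each side of the filter. Predicted genes, pseudogenes and receptor segments were left out of the rankings. Outside this rule, Trbv14, Pola1, Cdk1, Cks1b, Srrm2, Srsf3 and Eno2 were chosen after their values were seen. Alternatives were median-of-ratios factors (DESeq2 1.42.0), library size alone, upper-quartile factors, TMM over the knockout pair, the housekeeping median, other filters, prior counts of 0.5, 2 and 10, gene classes left out, coding genes only and removal of a gene length trend. After the data were seen, a mean filter, removal of the level trend and thinning to equal counts were added.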

Additional observations from a re-analysis of the deposited data

Results flagged for a closer look

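In 7 named genes with a mean of 10 scaled CPM or more over the 4 libraries, the 8-month level was at least 2-fold above the 2-month level in 1 genotype and at least 2-fold below it in the other. Named genes of lower level, such as Dnm1, Lama5, Fasl and Ifng, also met this condition. The difference was not tested, since each value is 1 library. Camk2b, a calcium and calmodulin dependent kinase, had 18.8 and 6.62 scaled CPM in knockout cells at 8 and 2 months, against 2.08 and 14.1 in wild-type cells, a difference between the log2 ratios of 4.27. Ppm1j, a protein phosphatase, had 43.6 and 19.5 in knockout cells, against 4.72 and 26.8 in wild-type cells (3.67), and Baiap3, a vesicle fusion protein, had 52 and 11.6, against 6.14 and 14.2 (3.38). Itih5, an extracellular protein that binds hyaluronan, had 35.1 and 13.5 in knockout cells, against 2.93 and 8.80 in wild-type cells (2.96). These 4 genes were highest in the 8-month knockout and lowest in the 8-month wild-type library.

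In the other direction, Cers6 had 3.38 and 9.17 scaled CPM in knockout cells, against 32 and 13.1 in wild-type cells (-2.73). Cacna1i, a T-type calcium channel, had 7.28 and 15.3 in knockout cells, against 36.7 and 13.4 in wild-type cells (-2.52), and Itgae, the integrin chain CD103, had 62.4 and 136, against 272 and 108 (-2.46). These 3 genes were highest in the 8-month wild-type library, the one with a dominant Trbv14 segment, and the part of that library difference was not tested.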

How the results depend on the processing

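No paired analysis was possible because each group has 1 library and no result comes from a test, and no library could be left out. The 1233 higher genes, 561 lower genes and median of -0.04 changed by less than 1.5 times, or by less than 0.1 for the median, with median-of-ratios factors, TMM over the knockout pair, upper-quartile factors, a filter of 1 CPM, the prior counts, classes left out, coding genes only, the length trend removed and thinned libraries. With library size alone the lower genes were 274 and the median 0.23. With the housekeeping scaling there were 2916 higher and 118 lower genes and the median was 0.54. Higher genes were 724 with 5 CPM, 455 with 10 CPM and 622 with 2 CPM in both libraries, and without a filter 3698 were higher and 2385 lower. With a mean of 10 CPM or more there were 339 higher genes, and with the level trend removed 796, both settings being chosen after seeing the data, as was the thinning. The causes of these shifts were not tested beyond what each setting removes or rescales.

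List medians changed sign in 14 of 65 lists with library size alone and in 26 with the housekeeping scaling. Of medians at 0.5 or beyond, the housekeeping scaling turned cyclins and CDK inhibitors to 0.0205, mitochondrial ribosome to 0.0609, ribosome biogenesis to 0.0419 and the Ly6 family to 0.0722. Mast cell, basophil and eosinophil markers had -0.37 with 5 CPM and with 2 CPM in both libraries, matrix and protease inhibitor genes -0.0419 with 2 CPM in both, and the Ly6 family 0.19 without a filter. With a mean of 10 CPM, sphingosine 1-phosphate receptors and carriers had -0.30, mast cell, basophil and eosinophil markers -0.65 and platelet markers -0.25. Fewer members remain under these filters, and the values of -0.65 and -0.25 are those of the lowest single member of each list. The 198 named genes at 2-fold kept their direction wherever they passed the filter, 155 at 2-fold with library size alone and 138 with the housekeeping scaling. Their direction could not turn under the scalings, which moved every ratio by 0.583 at most, nor under the filters, which left each ratio unchanged. The kept direction is therefore no support under those settings. At 10 counts or fewer, ratios such as those of Il17a or Prss34 are known only within a factor that their intervals give.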

Other observations

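Neuronal and synaptic genes were listed after values were seen, so their count follows in part from the choice of genes. Of 44 listed genes, 20 passed the filter and 19 of these were higher, 10 of them 2-fold (median log2 ratio 0.99, and -0.15 in wild-type cells), against 10.4% of all genes at 2-fold higher. Eno2, the neuronal enolase, had 22.9 and 5.28 scaled CPM in knockout cells at 8 and 2 months, against 4.53 and 5.36 in wild-type cells (knockout log2 ratio 2.12, interval 1.79 to 2.45). Of 34 semaphorin and collagen genes, also listed after values were seen, 20 passed the filter, 7 of them through the 8-month library alone, and 18 were higher.

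Splicing factors, also listed after values were seen, were mixed. Of 37 genes 21 were higher and 16 lower, with a median of 0.11. Srrm2, a large spliceosome protein of nuclear speckles, had 1818 and 701 scaled CPM in knockout cells at 8 and 2 months, against 662 and 776 in wild-type cells (knockout log2 ratio 1.37), and Prpf40b had 31.2 and 5.81 in knockout cells, against 9.16 and 8.75 in wild-type cells (2.42). Srsf3, a small splicing factor, had 194 and 416 in knockout cells, against 405 and 413 in wild-type cells (-1.10). Of 20 lysosomal genes, 10 were higher and 10 lower (median 0.02). Dhrs4, a short-chain dehydrogenase, had 56 and 297 counts in knockout cells, against 438 and 388 in wild-type cells, and Eps8l1, an actin regulator, had 150 and 2 counts in knockout cells, against 592 and 139 in wild-type cells.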
